A study of Mus musculus with 12 samples.

Results

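T-cell clones that were found in both the pancreatic islets and the spleens of the same pool of mice were compared with themselves across the 2 tissues. A clone was the set of cells with exactly 1 TCR α and 1 TCR β contig and the same pair of CDR3 nucleotide sequences, and it was kept when at least 5 of its cells were recovered from each tissue in the same round of the experiment. This gave 19 clones in Round 1 and 25 in Round 2, of 301 and 241 clones seen in either tissue. These 44 clones were 41 different TCR pairs, because 3 pairs were kept in both rounds. They held 4405 of the 5192 cells with a paired TCR in the tetramer-positive libraries, and 4405 of the 13667 paired cells in the whole series.

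CD8 T cells were sorted from NOD/ShiLtJ females, aged 10 to 15 wk and not yet diabetic, which develop spontaneous autoimmune diabetes. Tetramer-positive cells bound a Kd tetramer loaded with NRP-V7, a mimotope of an epitope from the β-cell protein IGRP. In each of 2 independent rounds, the islets and spleens of 10 mice were pooled, so no cell could be traced to 1 mouse. Islets were released with collagenase, hand-picked and kept at 37°C after dissociation, whereas spleens were processed mechanically and enriched for CD8 T cells with magnetic beads. The paper describes the sequenced spleen cells as sorted on CD44 and states no such gate for the islet cells. These steps cannot be told apart from the tissue. Because mice were pooled, each tissue was represented by 2 libraries, 1 per round. The p-values rest largely on the model's spread over genes, because 2 libraries tell little of the spread of a single gene.

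A naïve T cell fixes its receptor by joining V, D and J gene segments, with bases trimmed and added at the joins, and all of its progeny inherit that receptor. Cells with the same TCR in 2 tissues thus recognize the same peptide, and comparing them holds the receptor constant while the environment changes. Mice were pooled and 3 TCR pairs were kept in both rounds, so a clone as defined here may hold the progeny of several naïve cells. Antigen contact is known to raise inhibitory receptors and the NR4A transcription factors, whereas T cells that recirculate through blood and spleen keep KLF2, which maintains the sphingosine-1-phosphate receptors used to leave tissues.

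The receptors of the matched clones were closely related. All 41 pairs used TRAV16N, and 39 of them joined it to TRAJ42. TRBV13-3 was used by 33 pairs, and TRBJ2-7 and TRBJ2-4 were used by 20 and 14. Only 11 different α CDR3 sequences were found, of which 1 served 22 pairs and another served 8, compared with 35 different β sequences. The commonest α sequences and that of R1-1, the largest clone of Round 1 (clones were numbered by total size within a round) and the single user of TRAJ49, are shown to make visible how little the α junction varied. Capitals mark bases that continued neither the germline V segment from the left nor the germline J segment from the right, as annotated in GENCODE on GRCm38. This reference is from another strain, so a capital can also be a strain difference.
α of 22 pairs, TRAV16N and TRAJ42: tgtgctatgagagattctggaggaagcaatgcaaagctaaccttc
α of 8 pairs, TRAV16N and TRAJ42: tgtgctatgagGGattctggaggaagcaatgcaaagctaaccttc
α of R1-1, TRAV16N and TRAJ49: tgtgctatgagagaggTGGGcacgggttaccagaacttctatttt

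All 11 α sequences were 45 bases long and had 0 to 4 bases outside the germline matches. The β sequences, 36 to 45 bases long, had 0 to 10 such bases in the 40 of 44 clones where a germline V match was found. D segments, which only the β chain uses, were not matched, so these β bases can include germline D bases. The α and β counts are thus not alike in meaning. The β sequences of the 3 pairs kept in both rounds are given with those of the largest clone of each round. All 3 of the pairs kept in both rounds joined the α sequence of 22 pairs to a β sequence of 36 bases, which was also the median length. Of these 3 β sequences, 1 had no base outside the germline matches.
β of R1-2 and R2-17, TRBV13-3 and TRBJ2-4: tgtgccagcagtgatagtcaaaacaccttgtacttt
β of R1-15 and R2-4, TRBV13-3 and TRBJ2-4: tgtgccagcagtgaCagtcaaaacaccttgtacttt
β of R1-18 and R2-19, TRBV13-3 and TRBJ2-7: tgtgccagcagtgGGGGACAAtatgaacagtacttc
β of R1-1, TRBV13-3 and TRBJ2-4: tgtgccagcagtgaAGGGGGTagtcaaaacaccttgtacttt
β of R2-1, TRBV13-3 and TRBJ2-2: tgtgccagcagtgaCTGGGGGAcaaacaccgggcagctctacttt

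The matched clones made up most of the paired tetramer-positive cells. In islets, Round 1 had 610 matched cells among 673 (90.6%) and Round 2 had 1106 among 1191 (92.9%). In the spleen, the counts were 1321 among 1660 (79.6%) and 1368 among 1668 (82.0%). The clone R1-2 held 116 islet and 232 spleen cells, and R2-1 held 193 and 323. The smallest of Round 1, R1-19, held 5 and 11.

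The share of a clone varied between the tissues. Clones with under 5 cells in either tissue had been left out, so a clone large in 1 tissue and rare in the other could not appear and the relation of the shares is partly set by this choice. Over the 44 clones, the log2 shares in islet and spleen had a Pearson r of 0.58 and a Spearman rho of 0.48, given as a description because the choice used the same cell counts and clones of a round shared their libraries. R1-7 took 10.8% of paired islet cells but 1.20% of paired spleen cells, a ratio of 9.0. R2-5 went the other way, with 0.756% of islet cells and 5.88% of spleen cells, a ratio of 0.129. The shares of 22 clones were higher in each tissue, and the exact 95% binomial intervals, which cover counting error only, did not overlap in 18 clones, of which 13 were higher in islets and 5 in the spleen. The receptors kept in both rounds differed in this ratio between the rounds. The pair of R1-15 and R2-4 had an islet to spleen ratio of 0.548 in Round 1 and 2.30 in Round 2, and that of R1-18 and R2-19 had 2.06 and 0.548. R1-2 and R2-17 were both above 1, at 1.23 and 7.24.

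**Figure D1:**
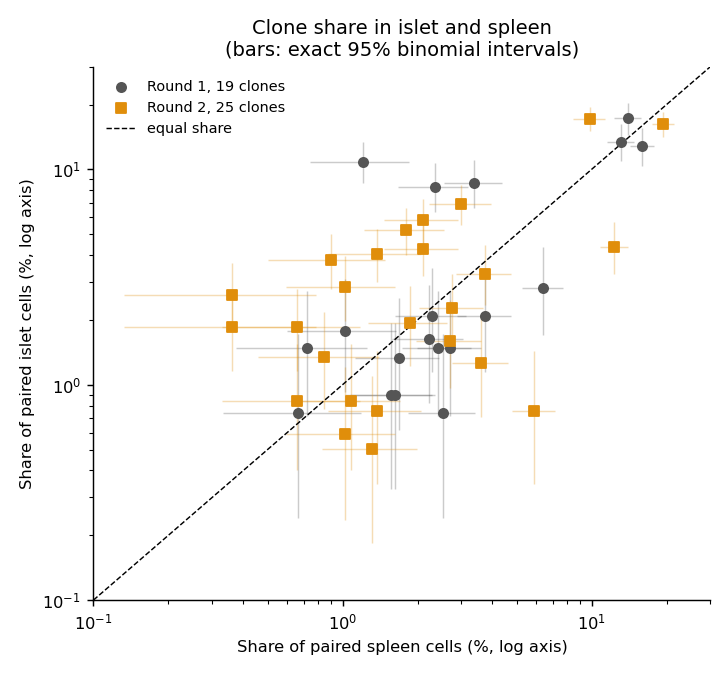
Share of all paired tetramer-positive cells taken by each of 44 clones, spleen on the x axis and islet on the y axis, both in percent on log axes; bars are exact 95% binomial intervals and the dashed line is equal share. Points lie on both sides of the line, 22 on each, and range from a ratio of 0.129 to 9.0.

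Matched clones were rare among tetramer-negative islet cells. In the tetramer-negative islet library of Round 1, 4 of 2992 paired cells (0.134%; exact 95% interval 0.0364% to 0.342%) carried a matched receptor of that round, and all 4 carried R1-13. In Round 2 the count was 0 of 5483 cells, for which the exact 95% interval reaches 0.0673% and the limit set by 3 counts is 0.0547%.

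More UMIs were recovered from the islet cells of a clone than from its spleen cells. RNA content, capture and sequencing depth of the separate libraries cannot be told apart in this difference. Median UMIs per matched cell were 4774.5 and 4640 in the islet libraries of Rounds 1 and 2 and 2617 and 2846 in the spleen libraries, and the clone's own median was higher in the islet for 43 of 44 clones. Median genes per cell were 1728 and 1854.5 in islets, compared with 1178 and 1375.5 in the spleen. The upper limit on genes per cell was 3500 for islets and 2000 for the spleen, which left out 52 and 145 cells of the islet libraries and 95 and 168 of the spleen libraries. In the separate TCR libraries, more UMIs per contig were also recovered from islet cells. The mean β contig had 11.7 and 13.8 UMIs in islet cells and 7.02 and 9.06 in spleen cells. For 39 of 44 clones the mean was higher in the islet. Whether TCR transcripts were more abundant relative to other RNA is not shown by these counts. Barcodes shared by the islet and spleen libraries numbered 11 in Round 1 and 6 in Round 2, and 0 of them carried the same pair in both.

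To compare expression, an equal number of cells of each clone was drawn from both tissues, 538 cells per tissue in Round 1 and 825 in Round 2, and their counts were summed per library. The 4 sums held 1471678 to 4421145 UMIs. Levels are given as CPM, the UMI count of a gene scaled to 1000000 UMIs with TMM-scaled library sizes, in the order Round 1 and Round 2, and log2 changes are islet minus spleen from edgeR's quasi-likelihood test with the round as a block, with Benjamini-Hochberg adjustment over 9470 genes. Of these genes, 2199 were higher in islets (23.2%) and 2156 were higher in the spleen (22.8%), and 61.0% did not overlap between the tissues, so a single call in either direction was common. The shares of 23.2% and 22.8% are the background for all counts of list members below. The calls were split almost evenly by edgeR, with 50.5% higher in islets, and less so by DESeq2, with 62.2%. Without the round in the model, 734 (7.75%) and 657 (6.94%) were called, and DESeq2 called 1055 (11.1%) and 641 (6.77%). All 3 models called 646 genes (6.82%) higher in islets and 490 (5.17%) higher in the spleen. In simulated counts, the model without the round recovered 0% of genes changed by 1 on the log2 scale and 20% of those changed by 2. The model with the round recovered 74.5% and 94.5%. Loss of a call of that size without the round was thus frequent even for true changes. Levels within single clones are given for the 17 clones with at least 20 cells in each tissue, 6 in Round 1 and 11 in Round 2, as CPM of the clone's own UMIs and as a description.

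CPM are relative to all UMIs of a sum and do not show UMIs per cell. The drawn islet cells held on average 5709 and 5359 UMIs and the spleen cells 2735 and 2903. Counted as UMIs per cell, 2198 of the 2199 genes called higher in islets were also higher in both rounds, whereas 992 of the 2156 genes called higher in the spleen (46.0%) were higher there in both rounds.

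The cells matched their label. Cd3e, an invariant chain of the TCR complex, was at 2148 and 1632 CPM in islets and 2009 and 1502 CPM in the spleen. The groups overlapped (log2 change 0.11 ± 0.14 SE, adjusted p = 0.55). CD4 T-cell markers summed to 0 to 1.09 CPM in the 4 sums. Cd8a, which encodes the CD8 α chain, was at 893 and 933 CPM in islets compared with 590 and 595 CPM in the spleen with a log2 change of 0.62 ± 0.15 (adjusted p = 1.0e-04) that was lost without the round (adjusted p = 0.15). Cd8b1, which encodes the β chain of the same coreceptor, went in the opposite direction in every model. It was at 521 and 409 CPM in islets and 1351 and 1083 CPM in the spleen, lower in islets in all 17 clones examined singly (log2 change -1.39 ± 0.15, adjusted p = 2.1e-19). Per cell, Cd8b1 was also lower in islets, by a ratio of 0.741 and 0.652.

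The 20 genes with the largest changes by a fixed rule are shown by library. The 10 that were higher in islets had log2 changes of 5.49 to 9.33, and 8 of them were called by all 3 models. Havcr2 encodes the inhibitory receptor TIM-3. It was at 61.9 and 88.4 CPM in islets and at 1.41 and 0.377 CPM in the spleen, where it rested on 3 counts, a ratio of 107 with a counting interval of 36.3 to 518. Tnfrsf4, which encodes the costimulatory receptor OX40, was at 122 and 108 CPM in islets and 2.11 and 1.51 CPM in the spleen, a log2 change of 6.00 ± 0.32 (adjusted p = 2.6e-75). Ramp3, which encodes a receptor activity-modifying protein, was at 79.4 and 157 CPM compared with 0.703 and 1.13 CPM (log2 change 6.98 ± 0.35, adjusted p = 1.6e-81). For these 3 genes, every islet sum lay far above every spleen sum, and the islet level was higher in all 17 clones.

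Areg, which encodes the EGF-family ligand amphiregulin, was at 19.0 and 33.3 CPM in islets and had no count in the spleen. It was at least 37.9-fold higher in islets, with 3 counts over both spleen libraries as the floor, but was not called by DESeq2 (adjusted p = 0.19). Areg was carried unevenly, with 0 counts in the islet cells of 7 of the 17 clones and up to 128 CPM in another. Ier5l, an immediate early response gene, differed most between the rounds, at 16.5 and 305 CPM in islets compared with 0.703 and 1.89 CPM in the spleen. Adgrg1, which encodes the adhesion receptor GPR56, was at 24.9 and 23.6 CPM in islets and rested on 2 counts in the spleen, a ratio of 49.1 (13.4 to 409). Pclaf, Ube2c and Hist1h1b, the remaining T-cell genes of the 10, act in the cell cycle and are described with it.

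The tenth gene, Ctrb1, encodes chymotrypsinogen, a product of pancreatic acinar cells. It was at 5.86 and 36.8 CPM in islets with no count in the spleen, at least 34.2-fold higher. The 10 exocrine genes measured summed to 48.0 and 208 CPM in islets and 10.5 and 3.77 CPM in the spleen, and all 4 that passed the filter were called higher in islets (23.2% of all genes were), 3 without the round in the model and 1 with DESeq2. Among these, Prss2, a trypsinogen gene, was at 9.15 and 38.1 CPM in islets and 4.92 and 0.754 CPM in the spleen, a call lost in both other models (adjusted p = 0.06 and 0.21). B-cell markers were higher in the spleen, at 40.1 and 37.0 CPM compared with 15.7 and 12.7 CPM, and myeloid markers were at 183 to 244 CPM in all 4 sums. Endocrine genes such as Ins2 summed to 3.66 and 8.75 CPM in islets and 0 and 0.377 CPM in the spleen. When cells with a UMI of an exocrine, endocrine or B-cell gene were left out, an alternative chosen after seeing the data, the other 19 of these 20 genes kept their call, and Ctrb1 was removed by that choice.

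The 10 genes with the largest changes toward the spleen had log2 changes of -3.67 to -8.14, and all 10 were called by all 3 models. S1pr5 and S1pr1 encode sphingosine-1-phosphate receptors. S1pr5 was at 0 and 0.219 CPM in islets, a single count, and 42.2 and 56.2 CPM in the spleen, a ratio of 375 (66.5 to 14867). S1pr1 was at 14.3 and 12.5 CPM in islets and 185 and 188 CPM in the spleen (log2 change -3.81 ± 0.20, adjusted p = 1.1e-78). Il7r, which encodes the IL-7 receptor α chain that sustains naïve and memory cells, was at 7.32 and 16.0 CPM in islets and 289 and 325 CPM in the spleen (log2 change -4.68 ± 0.20, adjusted p = 4.9e-114). Within single clones, Il7r ranged from 2.15 to 69.9 CPM in islets and from 78.6 to 481 CPM in the spleen. These ranges did not overlap across the 17 clones.

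Cx3cr1, which encodes the fractalkine receptor of circulating effector cells, was at 14.3 and 12.0 CPM in islets and 189 and 176 CPM in the spleen (log2 change -3.80 ± 0.20, adjusted p = 5.6e-78). Dtx1, a Notch pathway gene, was at 1.10 and 2.63 CPM in islets and 82.2 and 110 CPM in the spleen. Klf3, which encodes a Krüppel-like factor, was at 22.3 and 22.8 CPM compared with 291 and 290 CPM. Each of these 3 was higher in the spleen in all 17 clones. The remaining genes of the 10 were Gm2682, Kbtbd11, Acss2 and Cpne4, the last with 1 count in islets and 83 in the spleen.

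**Figure D2:**
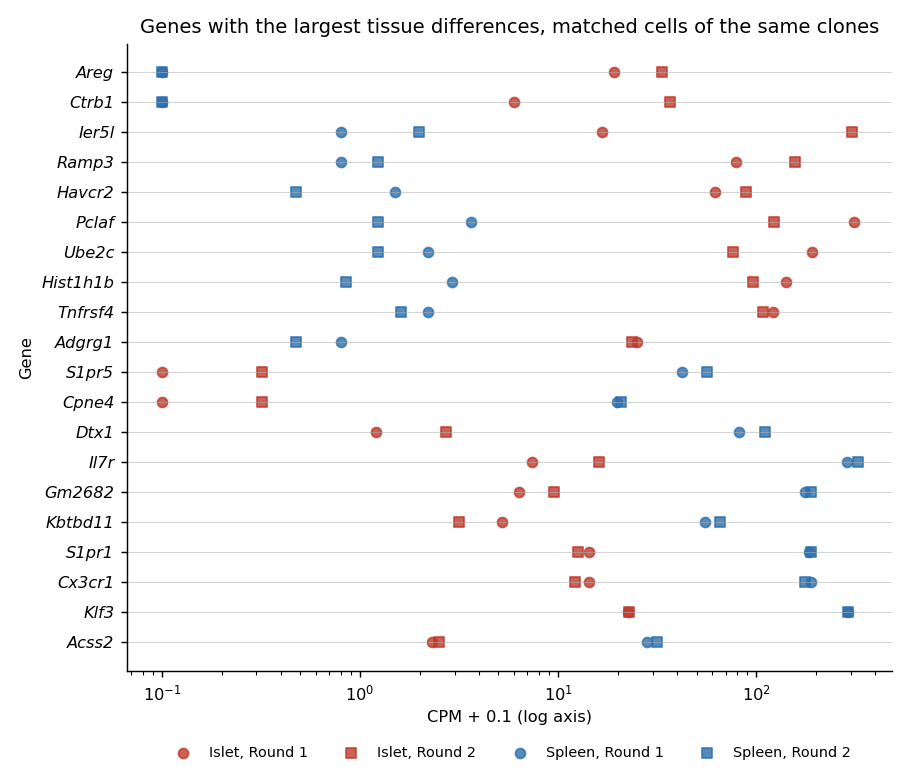
CPM plus 0.1 on a log axis for the 10 genes with the largest changes in each direction, 1 point per library (circles Round 1, squares Round 2; red islet, blue spleen). In each row both islet points lie on 1 side of both spleen points, and Areg and Ctrb1 have 0 counts in both spleen sums.

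Inhibitory receptors as a group were higher in islets. Of 8 coinhibitory receptor genes tested, 7 were called higher in islets and 0 in the spleen, with a median log2 change of 2.97, compared with -0.04 over all genes. The summed level of the list was higher in islets in all 44 clones. Pdcd1, which encodes PD-1, was at 602 and 662 CPM in islets and 64.6 and 53.6 CPM in the spleen, and rose by 3.44 ± 0.18 on the log2 scale (adjusted p = 6.7e-81). Lag3 was at 384 and 470 CPM compared with 40.8 and 30.2 CPM, and Ctla4, the competitor of CD28 for its ligands, at 301 and 436 CPM compared with 30.2 and 21.1 CPM. Tigit showed a smaller change of 2.50 ± 0.16 (adjusted p = 2.0e-51), with 160 and 123 CPM left in the spleen. Btla was the member that did not pass, at 5.86 to 7.03 CPM in all 4 sums.

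Costimulatory receptors were also mostly higher in islets, 7 of 9 against 2 (23.2% and 22.8% of all genes were called in these directions). Tnfrsf9, which encodes 4-1BB, a receptor induced by TCR signaling, was at 326 and 320 CPM in islets and 6.32 and 8.68 CPM in the spleen (log2 change 5.37 ± 0.23, adjusted p = 5.7e-113). Icos was at 372 and 532 CPM compared with 17.6 and 23 CPM (log2 change 4.48 ± 0.20, adjusted p = 1.4e-103). Both were higher in islets in all 17 clones, and 7 of the 17 had no count of Tnfrsf9 in their spleen cells. Cd226 and Tnfsf14 went the other way, Cd226 in the model with the round alone (adjusted p = 0.14 without it and 0.22 with DESeq2).

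Genes of egress and circulation were lower in islets. In the egress and homing list, 9 of 10 were called higher in the spleen (22.8% of all genes were) and 1 in islets, with a median log2 change of -2.65, and the summed level was higher in the spleen in all 44 clones. Klf2, which maintains S1pr1, was at 56.0 and 151 CPM in islets and 775 and 1251 CPM in the spleen (log2 change -3.38 ± 0.16, adjusted p = 2.0e-88). Ccr7, the receptor for lymph node entry, was the member that went the other way, at 153 and 254 CPM in islets and 47.8 and 69.4 CPM in the spleen (log2 change 1.79 ± 0.17, adjusted p = 5.4e-23). Cd69, which antagonizes S1PR1 and marks both recent activation and residence, was lower in islets, at 152 and 164 CPM compared with 706 and 501 CPM (log2 change -1.91 ± 0.16, adjusted p = 5.8e-32). In all 17 clones Cd69 was higher in the spleen cells.

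Of 12 stemness and memory genes, 8 were higher in the spleen and 3 in islets (22.8% and 23.2% of all genes were). The islet count was thus near the share of all genes. Tcf7, which encodes TCF-1, was at 64.1 and 85.1 CPM in islets and 226 and 283 CPM in the spleen (log2 change -1.77 ± 0.16, adjusted p = 2.3e-25). Bcl2, which encodes a survival factor downstream of IL-7, fell by 2.50 on the log2 scale, and Slamf6 by 1.66. Ccr7, Satb1 and Il6st were the 3 that were higher in islets, of which Satb1 was lost without the round (adjusted p = 0.10). Of 9 circulating effector genes, 8 were higher in the spleen, among them Klrg1 at 84.3 and 77.3 CPM compared with 10.6 and 9.84 CPM in islets. Several genes belonged to both this list and the egress list.

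Tissue residence genes were mostly higher in islets, 8 of 11 against 1, which was Cd69 (23.2% and 22.8% of all genes were called in these directions). Cxcr6, a chemokine receptor that holds T cells in tissues, was at 581 and 617 CPM in islets and 103 and 87.9 CPM in the spleen (log2 change 2.66 ± 0.17, adjusted p = 2.3e-54). It was higher in islets in all 17 clones, from 128 to 1269 CPM. Crem, which encodes a cAMP-responsive regulator, rose by 4.20 ± 0.24. Itgae, which encodes CD103, was below the filter, at 3.66 and 14.7 CPM in islets and 2.11 and 1.13 CPM in the spleen. Zfp683, which encodes HOBIT, was at or under 1.41 CPM in every sum. Among chemokine receptors 4 were called in each direction, and 2 without the round. Cxcr3 was higher in the spleen, and Cxcr4 was higher in islets, though it was at 13.5 CPM in Round 1 and 134 CPM in Round 2 and was lost without the round in the model (adjusted p = 0.075).

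**Figure D3:**
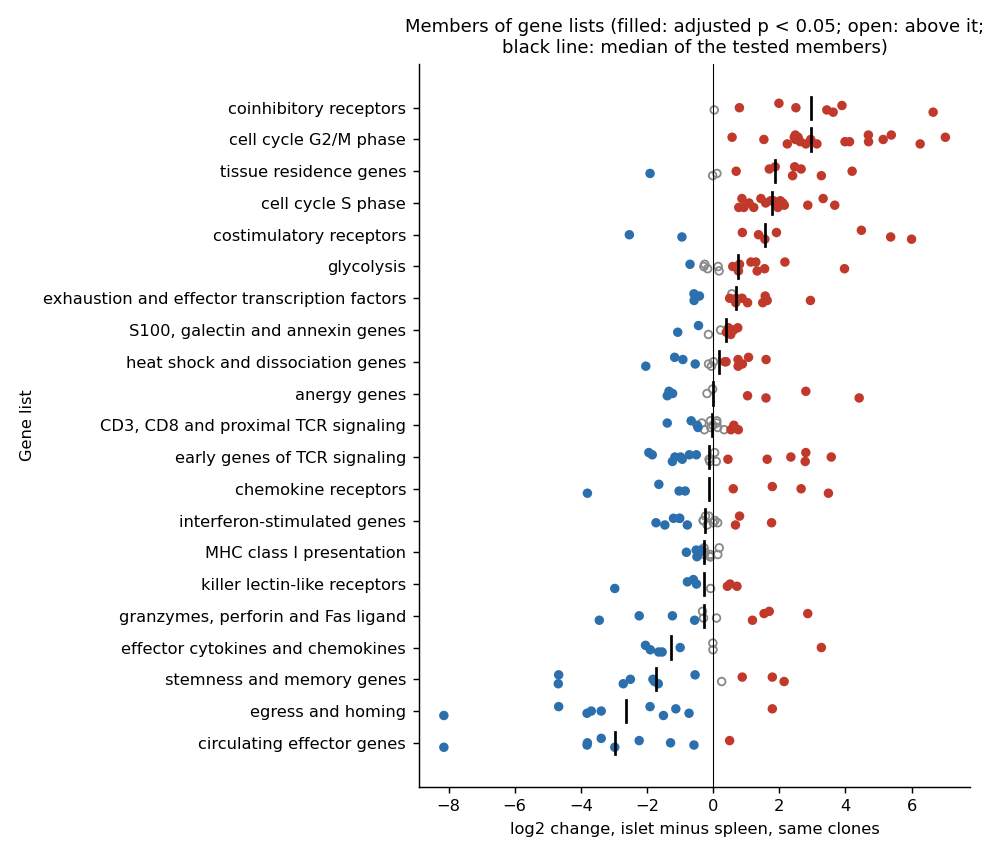
Log2 change, islet minus spleen in cells of the same clones, for each tested member of 21 gene lists; filled points passed the adjusted threshold, open points did not, and black lines are medians of tested members. Coinhibitory receptors lie to the right with a median of 2.97, and the egress and homing list lies to the left with a median of -2.65.

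Cytotoxic genes did not move together. Of 11 tested, 4 were called in each direction (23.2% of all genes were higher in islets and 22.8% in the spleen). Gzmb was at 281 and 214 CPM in islets and 36.5 and 30.9 CPM in the spleen (log2 change 2.86 ± 0.18, adjusted p = 3.7e-51), whereas Gzma was at 78.0 and 30.8 CPM in islets and 178 and 295 CPM in the spleen (log2 change -2.24 ± 0.17, adjusted p = 1.5e-35). The Gzma call was lost with DESeq2 (adjusted p = 0.079). Prf1, which encodes perforin, was at 57.5 and 50.3 CPM in islets and 125 and 126 CPM in the spleen (log2 change -1.23 ± 0.17, adjusted p = 8.5e-12). Per cell the Prf1 difference was smaller, with islet to spleen ratios of 0.882 and 0.687. Gzmk did not pass, at 379 and 333 CPM compared with 481 and 410 CPM.

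The levels of these 2 granzymes also varied between clones within a tissue. Gzmb in islet cells ranged from 4.66 CPM in R2-9, a single count, to 1033 CPM in R2-8, with a median of 203 CPM over the 17 clones. In R1-6 and R2-9 it was not higher in islets, at 16.6 and 4.66 CPM compared with 34.8 and 9.16 CPM in the spleen, on 4 counts or fewer. Gzma in spleen cells ranged from 0 in R1-7 and R2-9 to 874 CPM in R2-8, with a median of 253 CPM. It was higher in islets in R1-1, R2-9 and R2-12. By comparison, Klf2 kept within 679 to 1557 CPM in the spleen cells of the same clones. R1-7 and R2-9 held 20 and 35 spleen cells. Gzma had a UMI in 11.6% and 13.6% of matched spleen cells without thinning, compared with 81.7% and 92.7% for Klf2. The ranges thus differ in counting error, which was not estimated.

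Cytokine and chemokine genes were mostly higher in the spleen, 5 of 8 against 1 (22.8% and 23.2% of all genes were called in these directions). Ifng was at 91.5 and 80.3 CPM in islets and 498 and 255 CPM in the spleen (log2 change -2.05 ± 0.16, adjusted p = 8.0e-34). Ccl4 was at 267 and 310 CPM compared with 1449 and 804 CPM (log2 change -1.90 ± 0.15, adjusted p = 3.9e-33). Both were higher in the spleen in all 17 clones, and per cell the islet to spleen ratios were 0.353 and 0.544 for Ifng. Ccl5, the most abundant of these, fell by 1.00 on the log2 scale, but per cell it was at 98.2 and 91.1 UMIs in islets and 111 and 97.6 UMIs in the spleen. Its call was lost without the round in the model (adjusted p = 0.12). Xcl1, which encodes a chemokine for cross-presenting dendritic cells, was the exception, at 762 and 617 CPM in islets and 69.6 and 71.3 CPM in the spleen (log2 change 3.27 ± 0.17, adjusted p = 5.4e-77).

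Genes induced early by TCR signaling split into opposite directions. Of 18 tested, 6 were higher in islets and 8 in the spleen (23.2% and 22.8% of all genes were). Nr4a1, which encodes NUR77, was at 146 and 227 CPM in islets and 43.6 and 16.2 CPM in the spleen (log2 change 2.78 ± 0.19, adjusted p = 7.3e-44). Nr4a3 rose by 3.57 ± 0.22 and Egr2 by 2.80 ± 0.56. Both NR4A genes were higher in islets in all 17 clones. In contrast, Jun was at 97.7 and 122 CPM in islets and 517 and 350 CPM in the spleen (log2 change -1.95 ± 0.16, adjusted p = 1.9e-31), and Fos, Ier2 and Myc were also lower in islets. Without the round the list had 5 and 3 calls, and Ier2 (adjusted p = 0.066) and Myc (adjusted p = 0.051) were lost. AP-1 genes and heat shock genes are known to respond to tissue handling, which differed between the tissues. Of 14 heat shock and dissociation genes tested, 7 were higher in islets, such as Hspd1 at 303 and 270 CPM compared with 92.8 and 95.1 CPM, and 4 were higher in the spleen, such as Hspa1b at 188 and 69.4 CPM compared with 9.52 and 44.8 CPM in islets. Without the round the counts were 1 and 0 and with DESeq2 they were 5 and 1, and Hspa1b was lost in both (adjusted p = 0.086 and 0.26). The part of handling in these results cannot be told apart from the tissue.

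**Figure D4:**
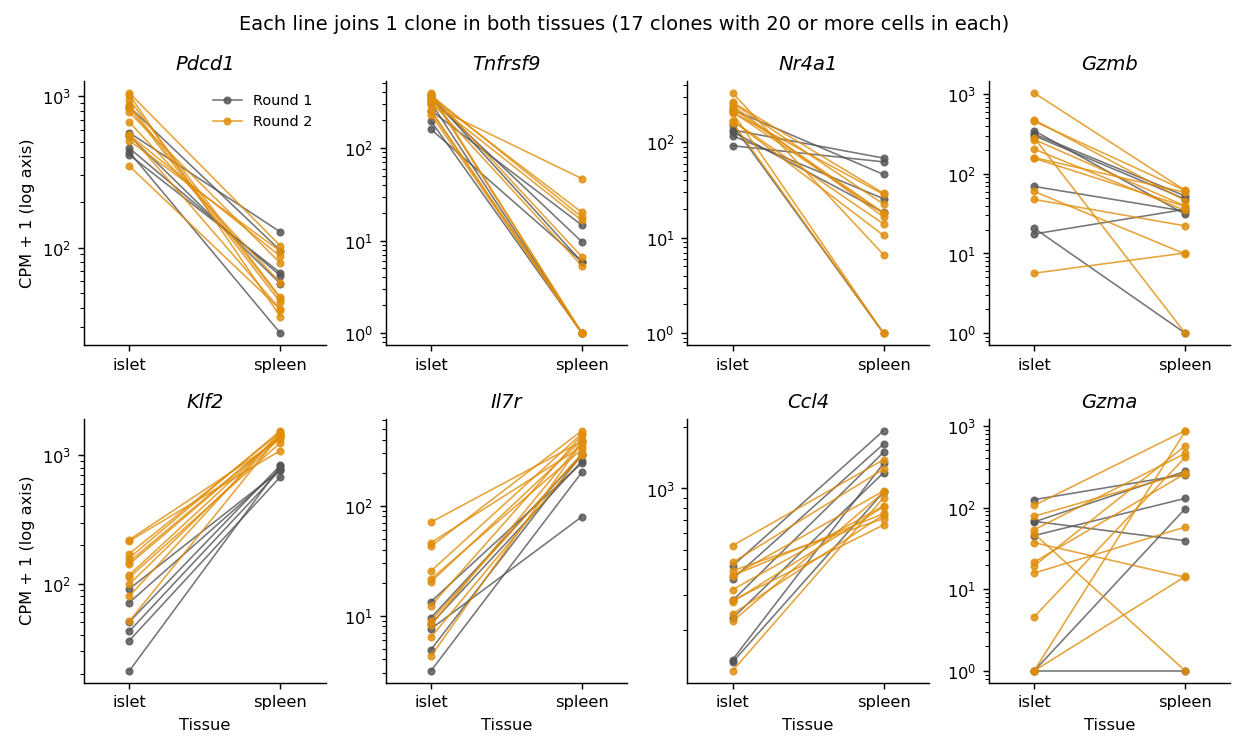
CPM plus 1 on a log axis in islet and spleen for 8 genes; each line joins the 2 tissues of 1 of 17 clones with 20 or more cells in each (gray Round 1, orange Round 2). For Pdcd1, Tnfrsf9 and Nr4a1 every line falls toward the spleen and for Klf2, Il7r and Ccl4 every line rises, whereas lines of Gzmb and Gzma run in both directions.

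Transcription factors tied to exhaustion and effector fate were called higher in islets in 9 of 13 cases and lower in 3. Over all genes, 23.2% and 22.8% were called in these directions, so the count of lower members was near that share. Without the round in the model the counts were 4 and 0, and with DESeq2 they were 7 and 0. Tox2 was at 112 and 110 CPM in islets and 20.4 and 10.6 CPM in the spleen (log2 change 2.94 ± 0.22, adjusted p = 2.3e-39), while its relative Tox changed by 0.68 ± 0.16 from a higher spleen level of 253 and 154 CPM, a call lost without the round (adjusted p = 0.19). Eomes and Tbx21 were both lower in islets by 0.58, and both calls were lost without the round (adjusted p = 0.17 and 0.38) and with DESeq2 (adjusted p = 0.067 and 0.17). Among anergy genes, Izumo1r, which encodes the folate receptor FR4, was at 40.6 and 44.8 CPM in islets and 3.51 and 1.13 CPM in the spleen. Cblb, a ubiquitin ligase that restrains TCR signaling, was at 247 and 320 CPM in islets and 97.7 and 90.5 CPM in the spleen, but Dgka, a diacylglycerol kinase with a similar restraining role, fell by 1.39. The list had 4 members called in islets and 3 in the spleen, compared with 3 and 1 without the round.

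Cell-cycle genes were higher in islets without exception among those tested: 16 of 16 of the S phase list and 19 of 19 of the G2/M list. Mki67 was at 80.5 and 56.2 CPM in islets and 6.32 and 15.5 CPM in the spleen (log2 change 2.45 ± 0.23, adjusted p = 5.0e-24). Pclaf, a PCNA-binding factor of replicating cells, was at 310 and 122 CPM compared with 3.51 and 1.13 CPM (log2 change 6.55 ± 0.29, adjusted p = 5.0e-104). This result depended on the limit on genes per cell. With at most 3500 genes in both tissues, 15 and 18 members were still called higher in islets, but with at most 2000 in both, which takes away the larger islet cells, 2 and 4 were, and Mki67 turned to -0.58 (adjusted p = 0.33). Cells with a UMI of 5 cycling genes were 35.4% and 28.4% of matched islet cells and 6.51% and 9.14% of matched spleen cells, at unequal depth. With them left out, 7 coinhibitory genes were still called higher in islets and 9 egress genes higher in the spleen.

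Glycolysis genes followed the same direction, with 9 of 15 higher in islets and 1 in the spleen. Ldha was at 923 and 848 CPM compared with 369 and 336 CPM (log2 change 1.33 ± 0.15, adjusted p = 3.2e-17), and Gapdh rose by 1.55 ± 0.15. Slc16a3, which encodes a lactate exporter, rose by 3.97 ± 0.48. Slc2a3, a glucose transporter gene, was the member called higher in the spleen, in the model with the round alone (adjusted p = 0.18 without it and 0.35 with DESeq2). Counts in the next 3 lists differed between the models, and 23.2% and 22.8% of all genes were called higher in islets and in the spleen. Of 17 interferon-stimulated genes, 3 were higher in islets and 6 in the spleen, compared with 1 and 2 without the round. Of 8 killer lectin-like receptors the counts were 3 and 4, but 0 and 1 without the round and 0 and 2 with DESeq2. Of 14 MHC class I genes, 5 were higher in the spleen, 0 without the round and 2 with DESeq2. H2-K1, at a log2 change of -0.51 ± 0.14, lost its call without the round (adjusted p = 0.76) and differed far more between the rounds than between the tissues, at 331 and 1753 CPM in islets.

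Every cell was also thinned to 1000 UMIs, so that shares of cells are compared at equal UMI numbers. Pdcd1 was then detected in 38.9% and 41.8% of matched islet cells and in 5.71% and 5.51% of matched spleen cells. Cx3cr1 was detected in 1.48% and 1.08% of islet cells and 15.1% and 14.7% of spleen cells. The exact 95% intervals of the islet and spleen libraries did not overlap for either gene. They cover counting error only, because cells of a library are not replicates of a tissue. Without thinning the Pdcd1 shares were 72.6% and 74.4% in islets and 15.3% and 13.7% in the spleen. Prss2, which T cells should lack, had a UMI in 0.659% and 1.54% of thinned islet cells and 0.304% and 0.0735% of spleen cells. Whether this was free RNA was not tested. Thinning left out 3 and 0 islet cells and 7 and 7 spleen cells below 1000 UMIs.

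A clone's islet cells were more like the islet cells of other clones than like its own spleen cells. Over 5589 genes without TCR segments, the summed islet profile of a clone correlated with that of other clones of its round at a median r of 0.956 in Round 1 and 0.927 in Round 2. The correlation with its own spleen profile had a median of 0.828 and 0.785. The value within the islet was higher in 6 of 6 and 11 of 11 clones. A weak trace of the clone remained when each gene's mean over the clones of a tissue and round was subtracted. The islet profile then correlated with its own spleen profile at a median r of 0.0608 and 0.0627. For the spleen profiles of other clones the median was -0.00886 and -0.00822. The clone's own spleen profile ranked first in 5 of 6 and 7 of 11 clones. These are correlations across genes, which are not replicates, and clones of a tissue shared a library and its depth.

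The 3 receptors kept in both rounds allowed the same comparison in separate pools of mice. For the pair of R1-2 and R2-17, Pdcd1 was at 547 and 681 CPM in islets and 56.7 and 109 CPM in the spleen. For R1-15 and R2-4 it was at 667 and 838 CPM compared with 29.4 and 42.5 CPM, and for R1-18 and R2-19 at 551 and 790 CPM compared with 60.0 and 57.0 CPM. All 6 islet values were above all 6 spleen values. Several rest on few cells, such as 6 spleen cells of R2-17, 6 islet cells of R1-15 and 12 spleen cells of R1-18. Not every gene kept its direction in such small sets. In R2-17, Cx3cr1 and Ifng were at 26.7 and 53.4 CPM in islets and at 0 CPM in the spleen. Gzmb was less steady. The pair of R1-15 and R2-4 had 2891 CPM in the 6 islet cells of Round 1 and 46.7 CPM in the 82 islet cells of Round 2.

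The matched clones were next set beside all other paired cells of the same 4 libraries. These other cells numbered 63 and 85 in islets and 339 and 300 in the spleen. All cells of the matched clones were summed here, without the equal draw per clone. The other cells came from clones with under 5 cells in at least 1 tissue, so their islet and spleen cells were not matched by clone. In their islet to spleen difference, tissue and clone cannot be told apart. In edgeR with the library as a block, the tissue difference was more positive in matched clones for 244 of 9861 genes (2.47%) and more negative for 128 (1.3%). Ramp1, which encodes a receptor activity-modifying protein, was at 24.9 and 28.8 CPM in matched islet cells, 1.96 and 2.21 CPM in matched spleen cells, 106 and 88.8 CPM in other islet cells and 129 and 72.1 CPM in other spleen cells. The tissue difference was larger in matched clones by 3.68 ± 0.37 on the log2 scale (adjusted p = 4.4e-11). Pdcd1 rose in both sets, but by less in matched clones (difference -2.27 ± 0.27, adjusted p = 4.4e-09). In islets it was at 616 and 675 CPM in matched and 703 and 774 CPM in other cells, whereas in the spleen it was at 63.1 and 48.6 CPM in matched and 9.75 and 16.2 CPM in other cells. Ikzf2, which encodes HELIOS, and Tigit likewise had higher levels in the matched than in the other spleen cells.

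For all 10 genes named by this test, the mean levels of matched and other cells were further apart in the spleen than in islets on the log2 scale. The other spleen cells were also less alike in receptor: 125 and 145 of them used TRAV16N, compared with 60 and 81 of the other islet cells. With the other cells restricted to TRAV16N, a choice made after seeing the data, 27 (0.281%) and 24 (0.25%) of 9602 genes were called, Ramp1 (difference 2.87 ± 0.45) and Pdcd1 (-1.73 ± 0.33) among them. Without the library block, 0 genes were called, and 473 had an unadjusted p under 0.05. DESeq2 called 165.

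**Figure D5:**
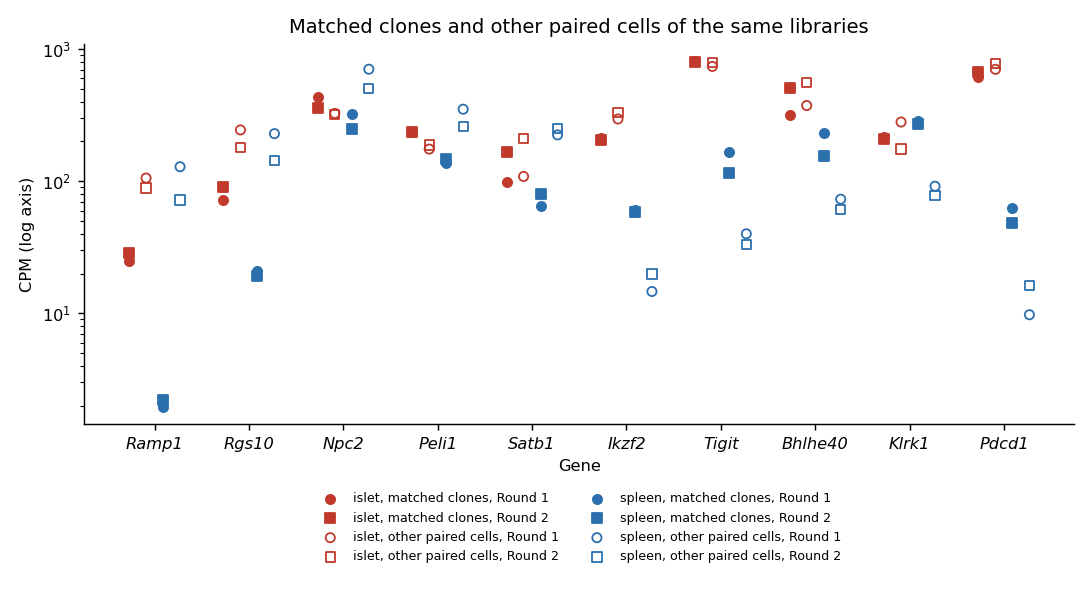
CPM on a log axis for the 5 genes of each sign with the smallest p in the test of matched clones against other paired cells (red islet, blue spleen; filled matched clones, open other cells; circles Round 1, squares Round 2). Filled and open blue symbols are well apart for each gene, such as Pdcd1 at 48.6 to 63.1 CPM and 9.75 to 16.2 CPM.

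The V genes of matched cells were fixed by the choice of clones, so their levels are given as a description only. Trbv13-3 was at 1096 and 1604 CPM in islets and 1738 and 1921 CPM in the spleen. Trav16n was at 44.7 and 553 CPM in islets and 52.7 and 597 CPM in the spleen. Its near-identical copy Trav16d-dv11 was at 351 and 46.2 CPM in islets, so reads were divided between the copies differently in the 2 rounds and the level of either is uncertain.

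On the GRCm38 build, the genes that carried the largest contrasts lie on several chromosomes in the GENCODE annotation. Pdcd1 lies at chr1:94038305-94052553, Tnfrsf9 at chr4:150914562-150946102, Nr4a1 at chr15:101254269-101274795, Il7r at chr15:9505788-9530176, Klf2 at chr8:72319033-72321656 and S1pr5 at chr9:21242912-21248443. UMIs were counted per gene.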

How the data were processed

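Single-cell gene expression and TCR libraries were made by the authors with 10x 5′ chemistry. The deposited files hold UMI counts per gene and cell, with no normalization, and TCR contigs per barcode. The methods name a later Cell Ranger release than the file headers, which give 5.0.1, so the version used for each step is uncertain. Read lengths differed between the rounds. Cells with mitochondrial UMIs under 5% and 200 to 3500 genes (islet) or 200 to 2000 (spleen) were kept. The paper also excluded a cluster of pancreatic exocrine cells, a step that was not repeated here. No correction for ambient RNA was made, and doublets were addressed by the upper gene limits and the requirement for exactly 1 α and 1 β contig, with no doublet caller.

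Equal numbers of cells per clone were drawn with a fixed seed and summed. Sums were filtered with filterByExpr, scaled by TMM and fitted in edgeR 4.0.16 (R 4.3.3) with the round as a block. Alternatives used DESeq2 1.42.0 and the settings given in the closing section, and scripts were tested on simulated data. The round pairs the libraries because the islets and spleens of a round came from the same pool of mice, and the Round 1 minus Round 2 differences of the tissues correlated at r = 0.683 across 9470 genes. With 2 libraries against 2, an exact permutation test cannot give a two-sided p below 0.333, so calls rest on the model's spread over genes.

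Named genes were the 10 with the largest change in each direction among those past the adjusted threshold of 0.05 whose direction agreed between rounds and whose level reached 20 CPM in the higher tissue, without TCR segments and mitochondrial genes, together with members of the gene lists. For the test against other cells they were the 5 of each sign with the smallest p. The clones and gene lists were chosen with earlier results of these data known. Some listed genes are not reported here. Gene coordinates are from GENCODE on GRCm38.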

Additional observations from a re-analysis of the deposited data

Results flagged for a closer look

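The tissue difference of matched clones differed from that of the other paired tetramer-positive cells for the 10 genes with the smallest p in edgeR's interaction test. The other cells were not matched by clone between the tissues. It was more positive in matched clones for Ramp1 (3.68 on the log2 scale), Rgs10 (1.86), Peli1 (1.45), Satb1 (1.44) and Npc2 (1.35). It was more negative for Ikzf2 (-2.39), Pdcd1 (-2.27), Tigit (-1.86), Klrk1 (-1.77) and Bhlhe40 (-1.70). All 10 differences had the same sign in both rounds. With the other cells restricted to TRAV16N, Bhlhe40 (adjusted p = 0.14) and Klrk1 (adjusted p = 0.085) were lost.

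In data outside the comparison of islet with spleen, 4 tetramer-negative islet cells of Round 1 carried the receptor of R1-13, compared with 5 tetramer-positive islet cells and 42 spleen cells of that clone. No tetramer-negative cell of Round 2 carried a matched receptor.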

How the results depend on the processing

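Of the genes higher in islets and in the spleen, the model without the replicate block called 734 and 657, DESeq2 1055 and 641, and cells thinned to 1000 UMIs 998 and 814. With 200 to 2000 genes in both tissues 1371 were higher in the spleen. The other alternatives stayed within 1.5 times, at 1648 to 2514 and 1561 to 2474. More positive and more negative differences against other cells numbered 114 and 51 with DESeq2, 156 and 41 with 200 to 2000 genes, 158 and 63 with 10 or more cells per clone, 27 and 24 against TRAV16N cells and 0 and 0 without the replicate block. With 20 or more cells, 17 clones were matched.

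Some listed genes reversed. With 200 to 2000 genes in both tissues, log2 changes were 0.59 for Dusp1, 0.28 for Egr1, 0.0207 for Klrk1, -0.0888 for Lgals1, -0.29 for Mcm3, -0.55 for Mcm5, -0.58 for Mki67, 0.0629 for Nlrc5 and -0.46 for Tyms. Without cycling cells they were 0.45 for Dusp1, -0.12 for Tyms and -0.64 for Ung. Without replicate 1 and without replicate 2, respectively, Jund was at 1.01 and -0.16, and Klrc1 at 0.85 and -0.00863. The cause was not tested. Of the 255 named and listed genes, 179 stayed on the same side of the threshold without the replicate block and 76 calls were lost, and DESeq2 lost 49. Leaving out a round leaves 1 library against 1, so a count of calls cannot be given.

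Tissue, dissociation, any difference in the sort gate and library cannot be told apart, mice were pooled, and 2 libraries per tissue limit the precision. RNA content and library depth cannot be told apart in the UMIs per cell, and genes with few counts in 1 tissue have wide intervals.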
